A study of Drosophila melanogaster with 3 samples.

Results

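Among the binding regions of the zinc finger protein zf30C in fly embryos, 224 lay between or beside a pair of genes that point in opposite directions. They were chosen by position alone. A peak was taken when its summit lay within 500 bp of at least 1 plus-strand and at least 1 minus-strand transcription start of protein-coding genes, the 2 genes being different. The 224 made up 6.28% of the 3567 peaks kept by the authors' irreproducible discovery rate (IDR) filter (exact 95% interval 5.51 to 7.13%). The filter draws on ranks in the replicates. The kept list equals the 3567 summits of highest signal in the pooled replicates, so a single peak in it need not rank alike in every replicate. A further 1049 peaks, 29.4%, had protein-coding starts on 1 strand only within 500 bp and are called one-directional here. The other 2294 peaks had no protein-coding start within that distance.

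The libraries came from 3 biological replicates of 1 group. These were whole *Drosophila melanogaster* embryos of both sexes, 0 to 24 h old, from a transgenic line that stably expresses zf30C with GFP at the C terminus. There was no second genotype or treatment, and neither the promoter that drives the transgene nor the number of copies of the zf30C locus is given in the sources used here. The labels name zf30C as the antibody target, yet their free text calls the libraries an input control. They were treated as immunoprecipitated samples, because the deposited notes set each against a control alignment, which the 3 replicates share. The lists give regions, summits and a signal value but no read counts, so the depth of each replicate is unknown and intervals on shares cover counting error only. Whole embryos mix many cell types, so binding in few cells and weak binding in many cannot be told apart.

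Head-to-head genes are common in the compact fly genome, and the DNA between their starts can hold the promoters of both. Such shared promoters often belong to genes that most cells use, and many carry the DNA replication-related element (DRE), which the factor DREF binds, or the letters CGATA, which the insulator protein BEAF-32 recognises. The GAGA factor and TATA box are known more from genes with regulated expression. zf30C itself belongs to the zinc finger family of DNA-binding proteins.

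The DNA between the starts is shown for 7 pairs, 6 of them among the strongest peaks and 1 at a ribosomal protein gene that was chosen after its values were seen. Each line gives the part of the between-start DNA that lies within 100 bp of the summit, on the plus strand of Release 6 (dm6), so the minus-strand gene starts to the left and the plus-strand gene to the right. Capitals mark CGATA or its reverse complement, alone or within the DRE letters TATCGATA, and 5 seven-letter runs described further on.
Wdr37/koko: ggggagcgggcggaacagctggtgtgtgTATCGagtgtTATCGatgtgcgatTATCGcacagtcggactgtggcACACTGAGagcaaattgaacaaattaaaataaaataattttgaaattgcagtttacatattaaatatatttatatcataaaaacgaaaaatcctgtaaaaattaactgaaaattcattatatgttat
EMC6/Hr96: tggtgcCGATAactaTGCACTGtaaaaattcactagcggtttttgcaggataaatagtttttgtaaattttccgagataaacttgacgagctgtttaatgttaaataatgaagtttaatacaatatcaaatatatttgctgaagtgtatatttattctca
CG43116/E(spl)mdelta-HLH: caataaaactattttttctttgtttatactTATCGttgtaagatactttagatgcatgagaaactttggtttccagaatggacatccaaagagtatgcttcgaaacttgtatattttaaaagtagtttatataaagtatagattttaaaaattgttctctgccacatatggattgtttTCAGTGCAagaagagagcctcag
orb/Cdc16: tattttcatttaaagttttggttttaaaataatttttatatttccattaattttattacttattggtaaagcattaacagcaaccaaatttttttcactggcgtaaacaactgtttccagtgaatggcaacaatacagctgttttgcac
Hem/IleRS: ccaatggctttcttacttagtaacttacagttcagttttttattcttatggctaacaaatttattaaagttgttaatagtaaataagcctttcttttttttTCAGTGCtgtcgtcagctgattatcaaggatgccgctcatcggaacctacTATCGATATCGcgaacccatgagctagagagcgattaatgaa
CG2246/CG31021: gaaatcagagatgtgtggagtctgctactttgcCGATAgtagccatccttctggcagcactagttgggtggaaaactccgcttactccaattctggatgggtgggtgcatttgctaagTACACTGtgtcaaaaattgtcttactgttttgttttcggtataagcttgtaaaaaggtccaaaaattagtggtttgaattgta
RpS25/CG4820: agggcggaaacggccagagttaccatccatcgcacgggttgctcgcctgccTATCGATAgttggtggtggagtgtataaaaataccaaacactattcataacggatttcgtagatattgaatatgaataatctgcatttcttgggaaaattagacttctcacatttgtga
The windows lie at chr3R:18402720-18402920 (Wdr37/koko), chr3R:25025018-25025177 (EMC6/Hr96), chr3R:25997204-25997404 (CG43116/E(spl)mdelta-HLH), chr3R:23281052-23281200 (orb/Cdc16), chr3L:22288472-22288664 (Hem/IleRS), chr3R:30601857-30602057 (CG2246/CG31021) and chr3R:11216288-11216457 (RpS25/CG4820). None of them overlaps an annotated exon. The summit follows 100 bases from the left end of each line, except that it is base 60 of EMC6/Hr96 and base 70 of RpS25/CG4820. The Wdr37/koko window holds 3 CGATA matches on the left of the summit. Hem/IleRS and RpS25/CG4820 hold a DRE, and orb/Cdc16 holds none of the marked letters. The lines are examples and do not show how common these letters are. The stronger summits of HP4/CG8209 (signal 2978) and nbs/defl (signal 2147), not shown, hold none of them in the same kind of window. Among the strongest 56 of the peaks with starts on both strands, 44.6% held CGATA within 100 bp of the summit. At least 1 of the 5 runs lay within 50 bp of the summit in 32.1%.

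The 224 summits lay in 218 distinct regions and at 208 gene pairs with 416 genes. In 6 regions 2 summits qualified, and 12 summits had more than 1 gene on a strand within 500 bp, for which the nearest pair was taken. The minus-strand gene is named first in each pair. Arm 3L held 59 of the summits, 3R 55, 2R 45, 2L 44, X 21 and 4 none. The starts pointed away from each other in 221 cases (98.7%, 96.1 to 99.7%), and in the other 3 the starts overlapped, with the minus-strand start to the right of the plus-strand start. When each gene was given only its outermost start, 87.9% were divergent. Where genes had several starts, the nearest pair of starts was taken. The same share over all neighbouring opposite-strand starts was not computed, so it is not read as a trait of the bound sites.

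Summits sat mostly in the gap between the starts. The gap had a median of 267 bp, with quartiles at 159 and 356 bp and a range of 22 to 813 bp. Of the 221 divergent cases, 160 summits lay between the starts (72.4%, 66.0 to 78.2%), 36 inside the minus-strand gene and 25 inside the plus-strand gene. Within the gap no side was favoured: with the gap cut into 3 equal parts, 48 of the 160 fell next to the minus-strand start, 56 in the middle and 56 next to the plus-strand start. The share between the starts was 37.1% for gaps up to 100 bp (13 of 35), 66.1% above that and up to 250 bp (41 of 62), 82.2% up to 500 bp (83 summits) and 23 of 23 above 500 bp. The rule sets part of this trend: above 500 bp only a summit between the starts can lie within 500 bp of both, and the room outside narrower gaps shrinks as they widen.

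Most summits were close to 1 of the starts, which the choice of peaks partly fixes. The rule asks for both starts within 500 bp, and the median gap was 267 bp. A preference for starts was not tested. The nearest start was a median of 55 bp away (quartiles 27 and 111 bp), and the farther one 217 bp. The nearest start lay within 50 bp of 108 summits and within 100 bp of 155, and 30 summits were within 100 bp of both. It was the plus-strand start for 108 summits and the minus-strand start for 115, and 1 summit was equally near. The replicates' own summits were read as those nearest to the pooled summit, which was itself made from these replicates, so closeness is partly fixed by the choice. In replicates 1, 2 and 3, this summit lay a median of 11, 11 and 20 bp from the pooled one, and was between the starts in 160, 155 and 154 of 221 cases. It was nearest to the same start as the pooled summit in 207, 197 and 197 of 224.

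**Figure D1:**
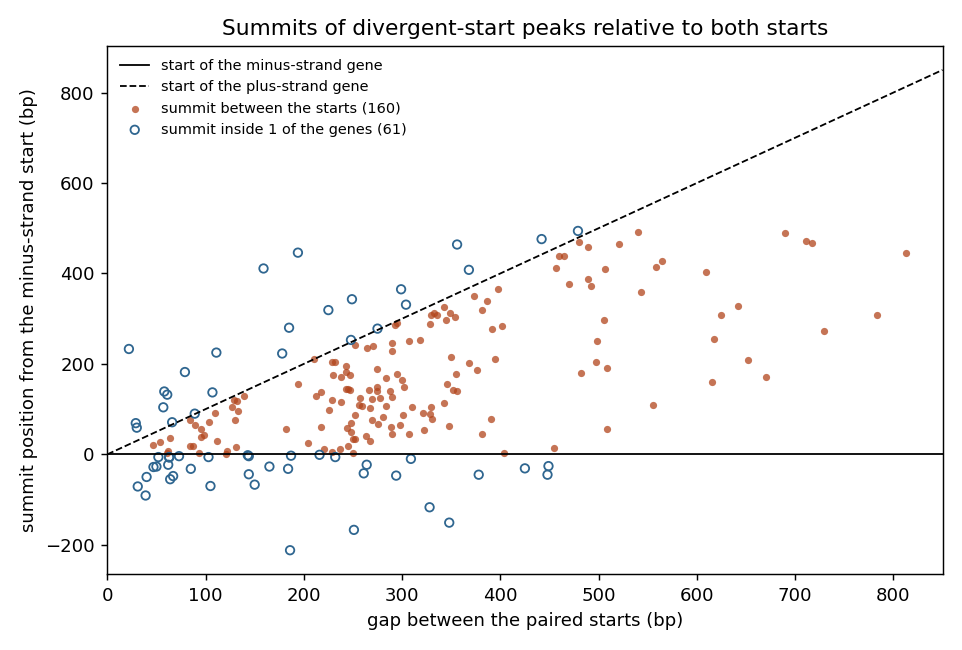
Position of each summit in bp from the minus-strand start (vertical axis) against the gap between the paired starts in bp (horizontal axis), for the 221 divergent cases; the solid line is the minus-strand start and the dashed line the plus-strand start. Filled points, 160 summits, lie between the lines, and open points, 61 summits, lie inside 1 of the genes, many of them at gaps under 100 bp.

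Median pooled signal was similar across gap widths, while the widest gaps had the highest upper quartile. The authors' pooled signal, whose unit the sources used here do not give, had a median of 281 for gaps up to 100 bp, 294 above that and up to 250 bp, 280 up to 500 bp and 289 above 500 bp. Across the 221 summits, which are not replicates, gap and signal had a Spearman coefficient of -0.05. The upper quartiles in the same order were 494, 608, 409 and 1052. Median percentiles of replicate signal among all IDR peaks, for replicates 1, 2 and 3, were 39.7, 27.6 and 44.3 in the narrowest class, 44.4, 39.9 and 48.4 in the next, 43.9, 34.0 and 40.3 up to 500 bp and 54.5, 42.6 and 60.8 above 500 bp. The 23 peaks of the widest gaps thus had the highest median in each replicate, and these differences were not tested. These percentiles take the strongest overlapping summit of the replicate. In the widest class CG4297/MED15 and CG43116/E(spl)mdelta-HLH shared their regions with stronger summits, so their percentiles exceed those of their own summits. Summits between the starts had a median of 281 and those inside a gene 319.

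The strongest of these peaks stood at the pair of Pgk, which encodes the glycolytic enzyme phosphoglycerate kinase, and Bacc. Its region at 2L, 2752649 to 2753375, had a pooled signal of 4440 and rank 17 in the IDR list, with the summit 27 bp inside Pgk and 192 bp upstream of Bacc. Its replicate signals were 2185, 1220 and 1055, on scales that cannot be compared between replicates, and its ranks in the replicates' own lists of 30000 were 23, 14 and 18. At CG7183/CG7988 (3R, 18220006 to 18220702, signal 4297) the summit lay in the gap, 108 and 151 bp upstream of the minus-strand and plus-strand starts, with ranks 11, 35 and 45. Both peaks were near the top in all 3 replicates, and the order of the 2 was reversed in replicate 1.

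Wdr37/koko and EMC6/Hr96 followed. Wdr37 encodes a WD-repeat protein; the peak (3R, 18402523 to 18403402, signal 3951) lay 104 bp upstream of Wdr37 and 206 bp upstream of koko, with replicate ranks 17, 39 and 69. EMC6 encodes a subunit of the endoplasmic reticulum membrane protein complex and Hr96 a nuclear receptor of lipid and xenobiotic responses. Their peak (3R, 25024757 to 25025388, signal 3584) lay 60 and 158 bp upstream of EMC6 and Hr96, with replicate ranks 34, 49 and 35. Ranks spread more at Wdr37/koko than at EMC6/Hr96.

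A pair of summits stood in 1 gap at HP4/CG8209 and at nbs/defl. HP4, a heterochromatin protein gene, shared its gap of 252 bp with CG8209, and the gap held 2 summits of 1 region (3L, 7975856 to 7976862). The first lay 35 bp upstream of HP4 with a signal of 2978, and the second 10 bp upstream of CG8209 with a signal of 1703. Read at the replicate summits nearest to them, the first ranked 47, 84 and 66 and the second 175, 187 and 319. Each gene of this pair therefore had a summit near its own start. The pair nbs/defl, for a DNA break repair protein of the MRN complex and an Integrator subunit, was arranged likewise, with summits 5 bp upstream of nbs (signal 2147) and 24 bp upstream of defl (signal 1675). The nearest replicate summits ranked 95, 164 and 250 at nbs and 161, 240 and 418 at defl.

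At Nup98-96/mbc the signal was 2358 and the summit 44 bp inside Nup98-96, which encodes 2 nuclear pore proteins, and 188 bp upstream of mbc (myoblast city), needed for myoblast fusion, with replicate ranks 72, 144 and 199. The gap of 625 bp between CG43116 and E(spl)mdelta-HLH, a Notch target encoding a bHLH repressor, held a summit near its middle, 308 and 317 bp from the starts, with a signal of 2296. Its region held a stronger summit elsewhere and ranked 41, 32 and 44, while the nearest replicate summits ranked 93, 97 and 252. At orb/Cdc16, for an RNA-binding protein of oogenesis and a subunit of the anaphase-promoting complex, the summit stood 49 bp upstream of Cdc16, with a signal of 2187 and ranks 124, 156 and 125.

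At Hem/IleRS the summit lay 93 bp upstream of IleRS, an isoleucyl-tRNA synthetase gene, and 377 bp upstream of Hem, a subunit of the WAVE actin regulator, with a signal of 2168 and ranks 108, 150 and 164. The peak of wmd/levy had a signal of 2134 and ranks 171, 107 and 93, with its summit 167 bp inside wmd and 418 bp from levy, which encodes a cytochrome c oxidase subunit. The peak of l(2)37Bb/Rpn3 lay 45 bp inside Rpn3, a proteasome subunit gene, with a signal of 2103 and ranks 132, 138 and 168. The remaining peaks of the 20 strongest were tank/CG12194, CG2246/CG31021, Pax/Alp12, TppII/ND-MWFE, CG10904/CG3065 and CG31808/Cyt-c-d, with signals of 1982, 1882, 1835, 1648, 1556 and 1515. Among these 6 the widest spread of ranks was at Pax/Alp12 (Pax encodes the adhesion protein paxillin), with 117, 245 and 409, and CG31808/Cyt-c-d, at a cytochrome c gene, had 250, 271 and 310.

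**Figure D2:**
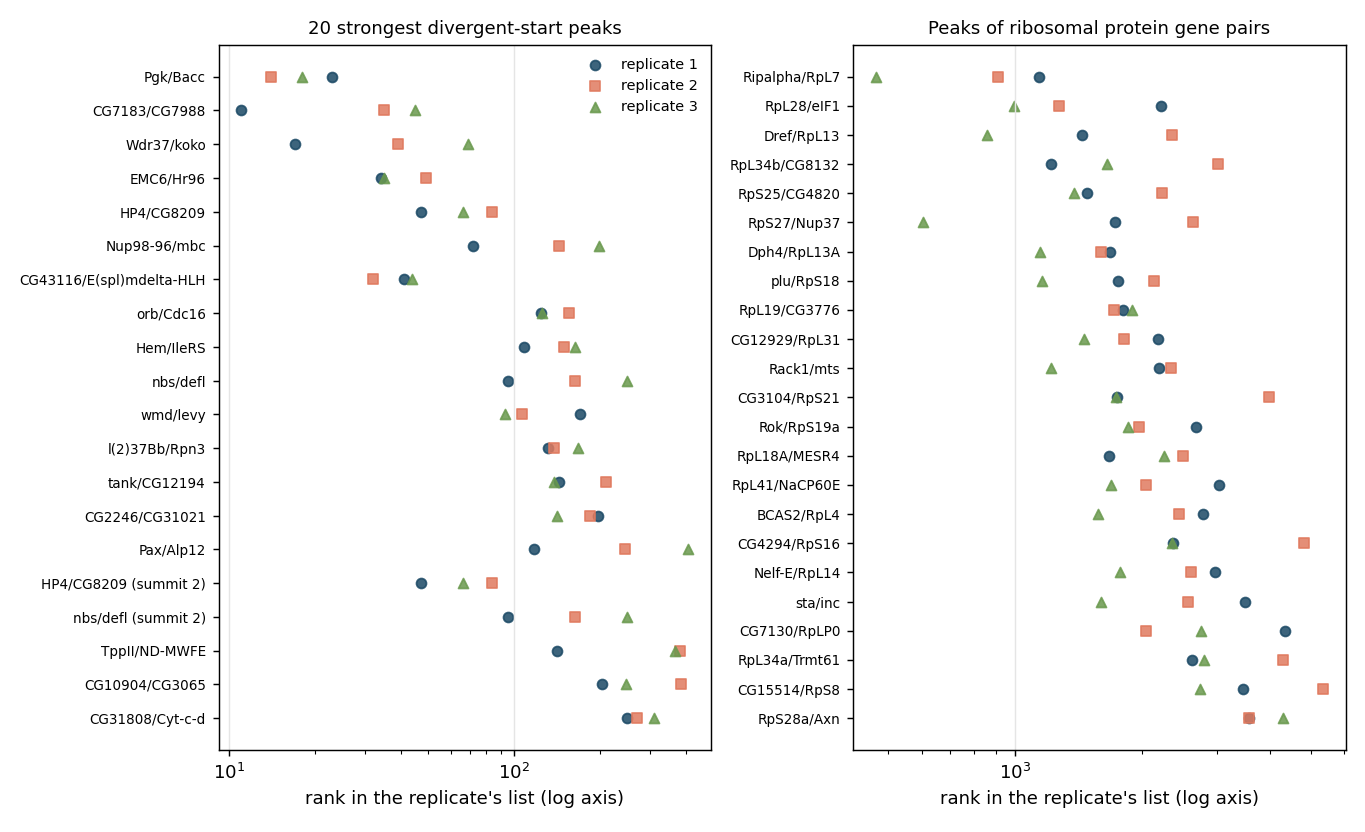
Rank of each peak in the list of each replicate (log axis, 1 is the strongest), for the 20 strongest divergent-start peaks on the left and for the strongest peak of each of 23 ribosomal protein gene pairs on the right, both in order of pooled signal; 2 summits of 1 region share their ranks. The 20 strongest lie between rank 11 and rank 409 in every replicate, and at many ribosomal protein pairs the replicate 3 symbol is the leftmost.

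The 3 overlapping pairs were CG31808/Cyt-c-d, CG15861/CG3770 and Gcn5/ver. CG15861/CG3770 had a signal of 524 and ranks 1049, 1132 and 980, close together in all replicates. Gcn5/ver, a histone acetyltransferase gene and a telomere capping gene, had 331 and ranks 1521, 2888 and 2526. The smallest gaps were those of CG8892/CG34126 (22 bp, signal 566) and Surf4/CG31301 (29 bp, signal 252). In the first the summit lay 233 bp from the minus-strand start, inside CG34126. The largest were those of pyx/CG33229, with a cation channel gene, at 783 bp (signal 1498), and CG4297/MED15, with a Mediator subunit gene, at 813 bp (signal 218). CG4297/MED15 ranked 147, 137 and 80 by region, but 1174, 12529 and 3921 at the nearest replicate summits, because its region held a stronger summit. A stronger summit shared the region of 8 of the 224.

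Ranks differed most between replicates at 4 weak peaks. MED30/Rev1, for a Mediator subunit and a translesion DNA polymerase, had ranks 2097, 3856 and 21668. 140up/Polr2B, with an RNA polymerase II subunit gene, had 2208, 13334 and 21397, and Pss/Nubp2 had 2211, 11449 and 18943. CG4743/Idh3g had 1907, 13430 and 8276. In each of these 4, with pooled signals from 195 to 233, replicate 1 ranked the peak highest. Taf11/und, whose pair lies next to the zf30C gene, had a signal of 325 and ranks 1353, 1769 and 6671. At the edge of the rule, tank/CG12194 and Nepl19/Nepl20 had their farther start at 499 bp, with signals of 1982 and 402. Just outside were Tailor/alphaTub84B, by 1 bp, with 286, and CG8839/ana3 at 502 bp, with 439.

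Support by a replicate means here that the peak overlapped a region among that replicate's own top 3567. All 3 replicates supported 127 of the 224 divergent-start peaks (56.7%, 49.9 to 63.3%) and 655 of the 1049 one-directional peaks (62.4%, 59.4 to 65.4%). The background over the whole IDR list was 65.3%. Another 53 divergent-start peaks had the support of 2 replicates, 42 of 1 and 2 of none, and every one had some region in each replicate's full list. The IDR list was made from these replicates, so support describes how the lists relate and is not an independent test.

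Support differed between replicates. Replicates 1, 2 and 3 supported 88.4, 72.3 and 75.4% of the divergent-start peaks, against 81.2, 82.2 and 86.9% of the one-directional ones. The divergent-start share was thus the higher in replicate 1 and the lower in replicates 2 and 3. In 4 groups of 56 by pooled signal, from strongest to weakest, 56, 48, 20 and 3 divergent-start peaks were supported by all 3.

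Signal was somewhat lower than at one-directional promoters. The divergent-start peaks had a median pooled signal of 285 (quartiles 225 and 473, range 193 to 4440), against 321 for one-directional peaks. For comparison within each replicate, a peak's highest overlapping signal was turned into its percentile among all 3567 peaks. The median percentiles in replicates 1, 2 and 3 were 44.0, 38.1 and 46.6 for divergent-start peaks and 47.0, 49.5 and 55.0 for one-directional peaks. The difference was lower in 3 of 3 replicates, by a mean of -7.57 ± 4.26 percentile points (SD, n = 3; exact two-sided sign-flip permutation test, p = 0.25, the smallest that 3 replicates can give). The test cannot pass a threshold of 0.05 at this number of replicates. Against the 2294 peaks with no protein-coding start nearby the differences were -7.95, -13.3 and -0.90.

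**Figure D3:**
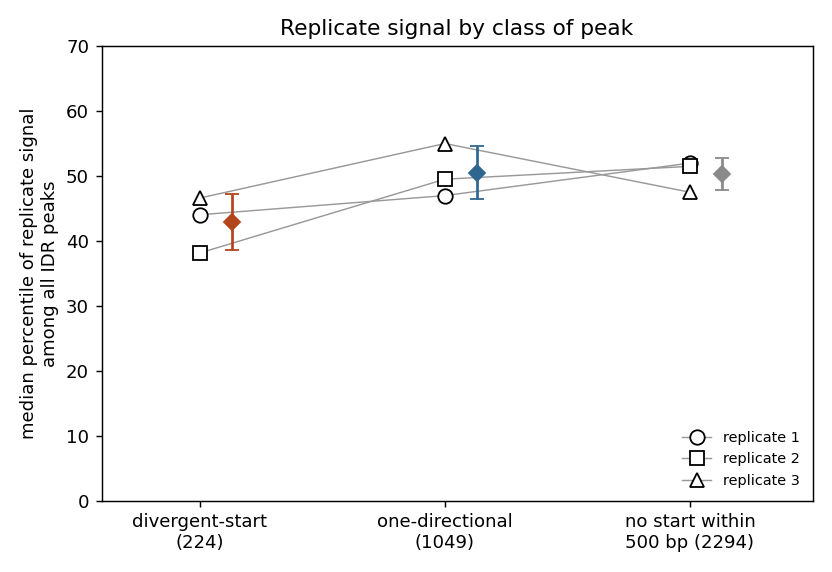
Median percentile of replicate signal among all 3567 peaks (vertical axis) for the 224 divergent-start peaks, the 1049 one-directional peaks and the 2294 peaks with no protein-coding start within 500 bp; open symbols are the 3 replicates joined by lines, and coloured diamonds with bars the mean and SD over replicates. The divergent-start medians, 38.1 to 46.6, are below the one-directional median of the same replicate in each case.

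Divergent starts took a larger share of the list towards its lower end. Among summits ranked 1 to 891 by pooled signal 5.05% lay at divergent starts, then 5.16% at ranks 892 to 1783, 6.50% at 1784 to 2675 and 8.41% at 2676 to 3567. Past the end of the IDR list the share was 9.45% at ranks 3568 to 7134, 6.36% at 7135 to 14268 and 2.47% at 14269 to 30000. As a share of promoter summits it was 13.8% among ranks 1 to 891, 21.6% in the last band of the list and 24.7% just beyond it. In all, 1136 weaker pooled regions outside IDR regions met the same rule, 4.44% of 25574.

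Seen from the genes, most divergent pairs carried no peak. Of 2640 divergent pairs of protein-coding genes with a gap up to 1000 bp, 226 had an IDR summit within 500 bp of both starts, a background of 8.56%. This is more than the 208 pairs above because 1 summit can be in reach of several pairs. The share was 11.0% for gaps up to 100 bp (47 of 427), 11.6% above that and up to 250 bp (69 of 597), 9.92% up to 500 bp (94 of 948) and 2.40% up to 1000 bp (16 of 668). The rule limits the last class. Among pairs with any pooled region the share was 18.4, 21.2, 17.3 and 17.6% in the same order. On arm X 21 of 402 pairs had a peak (5.22%, 3.26 to 7.87%), and the share was 7.59% on 2R (5.50 to 10.2%), 8.45% on 2L, 9.68% on 3R, 11.0% on 3L (57 of 517) and 0 of 11 on arm 4. The interval on X overlapped that on 2R. Among pairs with any pooled region it was 11.0% on X, 18.7% on 2R, 19.9% on 3R, 21.3% on 3L and 43 of 215 on 2L.

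**Figure D4:**
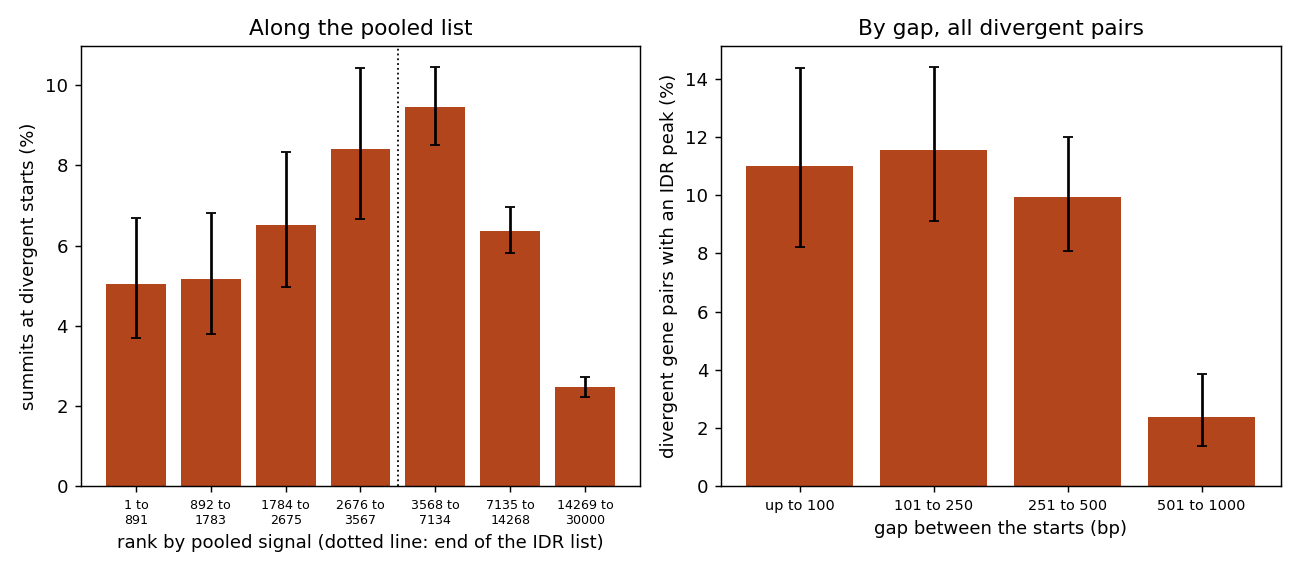
Left, share of summits at divergent starts (%) by rank of pooled signal, with the end of the IDR list at the dotted line; right, share of all divergent gene pairs with an IDR peak (%) by gap in bp. Bars carry exact 95% intervals; the left share is highest at 9.45% just past the list, and the right share is 9.92 to 11.6% up to 500 bp.

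The genes of the pairs were compared with 17 lists of housekeeping and regulatory genes. Over all 5052 protein-coding genes in divergent pairs, 414 belonged to a pair of a peak, a background of 8.19%. Cytosolic ribosomal protein genes were above it, with 23 of 57 (40.4%, 27.6 to 54.2%), and so were insulator and architectural protein genes, with 6 of 17 (35.3%, 14.2 to 61.7%). Among these 6, insv and Elba2 form 1 pair with 1 peak, so their counts are not separate. Dref is counted through the peak of Dref/RpL13, which also counts for RpL13, so the 2 lists share a peak. The 17 lists were chosen with earlier results of these data known, and the intervals make no allowance for their number. For the other 15 lists the interval held the background. They gave 6 of 58 mitochondrial ribosomal proteins, 1 of 26 proteasome subunits, 3 of 27 translation factors, 3 of 22 aminoacyl-tRNA synthetases and 3 of 37 general transcription factors and RNA polymerase subunits. The count was 3 of 21 for Mediator, 5 of 54 for splicing, 4 of 29 for replication and cell cycle, 3 of 30 for DNA repair, 4 of 34 for chromatin and 3 of 47 for oxidative phosphorylation. It was 4 of 81 for secretory transport, 2 of 32 for ubiquitin, 2 of 22 for mitochondrial import and chaperones and 0 of 2 for developmental transcription factors.

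At ribosomal protein genes the summit mostly stood nearer the start of that gene than the partner's. The 23 genes, in 23 pairs, had 26 peaks, whose summits lay a median of 26.5 bp from the ribosomal protein start and 256.5 bp from the partner start. The ribosomal protein start was the nearer in 22 of 26 (84.6%, 65.1 to 95.6%) and within 50 bp in 18 of 26 (69.2%, 48.2 to 85.7%). Of the other 198 divergent-start peaks, 90 had their nearest start, of either gene, within 50 bp (45.5%, 38.4 to 52.7%). The summit was upstream of the ribosomal protein start in 21 of 26. Genes of this class start within a pyrimidine-rich TCT element and make the subunits of the translating ribosome.

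The signals at these genes were moderate. RpL7, paired with Ripalpha across 30 bp, had 642, with the summit 29 bp inside RpL7 and ranks 1138, 912 and 467. RpL28, paired with the translation initiation factor gene eIF1, had 445, with the summit 46 bp upstream of RpL28 and 335 bp from eIF1, and ranks 2217, 1270 and 992. RpL13, paired with Dref, the gene of the DRE-binding factor, had 422, with the summit 8 bp upstream of RpL13 and 76 bp from Dref, and ranks 1438, 2347 and 855. At RpL34b the signal was 409, with ranks 1214, 3021 and 1651. Replicate 3 gave the best rank in the first 3 of these and replicate 1 in the fourth.

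Replicate 3 ranked most ribosomal protein peaks higher than replicates 1 and 2 did. It gave the best of the 3 ranks in 19 of the 26, against 5 for replicate 1 and 2 for replicate 2, while among the other 198 divergent-start peaks it was best in 62, replicate 1 in 104 and replicate 2 in 32. The median percentiles of the 26 in replicates 1, 2 and 3 were 36.9, 35.7 and 52.7, against 44.2, 39.0 and 42.7 for the other 198. All 3 replicates supported 20 of the 26 (76.9%, 56.4 to 91.0%) and 107 of the other 198 (54.0%, 46.8 to 61.1%). The pooled median signal was 291 for the 26 and 283 for the other 198.

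Insulator and architectural protein genes included Nup98-96 and Dref, both described above. Cp190, a cofactor of several insulator proteins, had a signal of 387 with ranks 1226, 2560 and 2618, and its summit lay 82 bp upstream of its start, in the pair Cp190/CG4338. Chro (Chromator) in Chro/Ssl1 had 380 with ranks 1494, 1837 and 1931. The remaining genes, insv and Elba2, form 1 pair and share a peak of 374 with ranks 1510, 2000 and 1308. Both encode BEN domain proteins that bind boundary elements, and apart from Nup98-96 the list's signals lay between 374 and 422.

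Members of the other lists ranged from strong to weak. Mediator subunits were MED20 in MED20/Trf, MED15 and MED30, with signals of 294, 218 and 211. TfIIA-L in pll/TfIIA-L had 1246 with ranks 306, 385 and 471, and Xpd in LSm1/Xpd, a repair and transcription helicase gene, had 891 with ranks 424, 668 and 938. The chromatin genes were Mi-2, brm, Gcn5 and E(z), with signals of 425, 393, 331 and 314. Mi-2 and brm encode nucleosome remodelling ATPases, and E(z) the Polycomb methyltransferase. For E(z) the ranks were 1822, 1857 and 3580. Orc2, of the origin recognition complex, had 422, and mRpS10, of the mitochondrial ribosome, 535. Over all 17 lists 75 genes had such a peak, and 341 of the 416 genes were in no list.

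Motif letters were counted on both strands within 100 bp of the summit for 10 motifs. The DRE (TATCGATA) was present at 11.6% of divergent-start peaks (7.72 to 16.5%) and 3.15% of one-directional peaks (2.18 to 4.39%), and CGATA at 47.8% (41.1 to 54.5%) and 31.6% (28.8 to 34.6%). A pair of non-overlapping CGATA matches was present at 19.6 and 9.15%, Motif 1 (GGTCACACT) at 6.70 and 2.86%, the E-box CAGCTG at 17.9 and 10.1%, and the TATA box TATAAA at 37.9 and 24.4%. GAGAG, the GAGA factor letters, ran the other way, at 17.0% (12.3 to 22.5%) and 40.8% (37.8 to 43.8%), as did the initiator letters TCAGT at 33.9 and 41.5%. Motif 6 (GTATNTTT) was at 11.2 and 9.82% and the Zelda letters CAGGTA at 2.23 and 3.05%. Intervals overlapped for Motif 1, Motif 6, Zelda and the initiator. Each DRE holds CGATA on both strands in overlapping positions, so these counts are not separate.

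Several of these shares were much the same at weaker divergent starts. At the 1136 weaker divergent-start regions the DRE was present at 12.8%, CGATA at 48.1%, the E-box at 17.8% and GAGAG at 19.2%, all near the values at divergent-start peaks. Windows of the same length on all 19253 protein-coding starts held the DRE at 6.45%, CGATA at 37.1%, the E-box at 13.4% and GAGAG at 24.99%. TATAAA stood at 37.9% of divergent-start peaks (31.6 to 44.7%), 27.4% of the weaker divergent-start regions (24.8 to 30.1%) and 26.9% of all starts. The median GC content was 37.3% at divergent-start peaks, 40.3% at one-directional peaks and 38.8% at the weaker regions, and the part of base composition in these shares was not tested. A match is a run of letters and not a measured site.

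**Figure D5:**
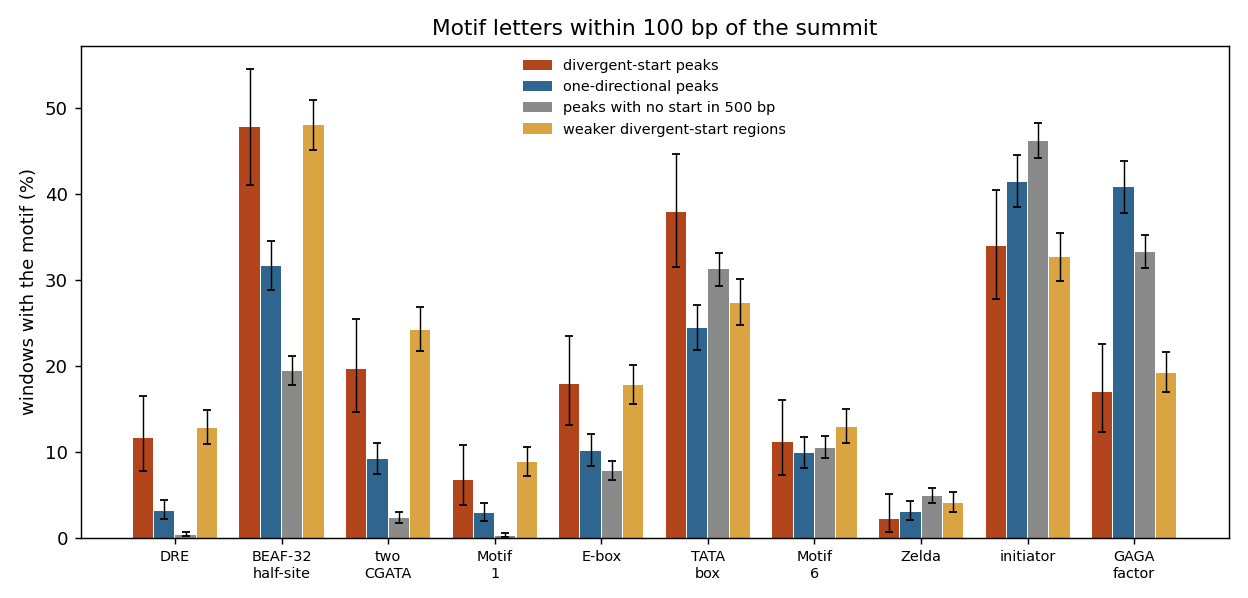
Share of windows within 100 bp of the summit that hold each of 10 motifs (%), for divergent-start peaks, one-directional peaks, peaks with no protein-coding start within 500 bp and weaker divergent-start regions, with exact 95% intervals. DRE, CGATA and GAGAG shares at divergent-start peaks (11.6, 47.8 and 17.0%) are close to those at weaker divergent-start regions (12.8, 48.1 and 19.2%).

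Signal with and without CGATA ran in opposite directions between replicates. The 107 divergent-start peaks with CGATA had median percentiles of 37.1, 39.4 and 52.4 in replicates 1, 2 and 3, against 47.8, 36.9 and 37.8 for the 117 without. Peaks with CGATA were thus lower than those without in replicate 1 and higher in replicates 2 and 3. The strongest peaks with a DRE were Hem/IleRS, l(2)37Bb/Rpn3 and the second summit of HP4/CG8209, and those with Motif 1 were nbs/defl, CG9890/PPO3 and ProRS-m/Snup.

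A search for runs near the summit was added after the data were examined, and lengths of 6, 7 and 8 letters were all tried before 7 was kept. It was run on the 3343 IDR peaks that are not at divergent starts, comparing the bases within 50 bp of the summit with flanks 150 to 250 bp away, over 8192 runs with their reverse complements merged. The leading 5 share letters with each other and with the initiator. CAGTGTA was present at 14 of the 224 divergent-start peaks, CACTGAG was present at 2, ACACTGA was present at 9, CAGTGCA was present at 11 and GCACTGA was present at 9. At least 1 of them was present at 35 of the 224 divergent-start peaks (15.6%, 11.1 to 21.1%), at 21.0% of one-directional peaks (18.5 to 23.6%) and at 31.9% of peaks with no start nearby. The flanks of the same peaks gave 6.47, 7.29 and 6.60%, and weaker divergent-start regions 7.13%. As shares, CAGTGTA was at 6.25% of divergent-start and 8.67% of one-directional peaks, and CACTGAG at 0.893 and 6.10%. With runs of 6 letters the shares with any of 5 were 42.9 and 46.4%, and with 8 letters 3.13 and 12.2%. The runs were picked on peaks that include the one-directional ones and leave out the divergent-start ones, so a lower share at divergent-start peaks is partly built into the choice and is not read as a difference.

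Peaks with 1 of these runs were the stronger ones. In the same 4 groups of 56, from strongest to weakest, 18, 8, 2 and 7 divergent-start peaks held one. The 35 with a run had a median signal of 512 and median percentiles of 67.7, 68.0 and 73.7 in replicates 1, 2 and 3, and the 189 without had 279 and 39.2, 34.0 and 41.3. This is a description, since the runs were picked in the same libraries, although at other peaks. In the printed DNA the runs stand in capitals at Wdr37/koko, EMC6/Hr96, CG43116/E(spl)mdelta-HLH, Hem/IleRS and CG2246/CG31021. In Hem/IleRS the run begins 1 bp from the summit. At CG43116/E(spl)mdelta-HLH the runs begin 78 and 79 bp from the summit, beyond the 50 bp counted. This peak is therefore among the 189 without a run.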

How the data were processed

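ChIP-seq lists from 3 embryo replicates of 1 group were used as deposited, on build dm6 per the file headers. The authors deposited a signal per summit, with no stated unit, and a −log10 q-value that was the same for every IDR peak and was not used. Each replicate list came from that replicate and a shared control, the pooled list from all 3, and the IDR list equals the 3567 highest pooled summits. No aligner, peak caller or IDR threshold is named in those sources. No read counts are given, so depth is unknown. No other value columns were left out (0).

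Starts came from Ensembl release 115 (BDGP6.54) and sequences from RefSeq Release 6, which share dm6 coordinates; no region passed an arm's end. Positions count from 1. Python 3.11.15, pandas 2.3.3 and SciPy 1.17.1 were used, and the scripts were tested on simulated data. Shares carry exact (Clopper-Pearson) 95% intervals. A replicate value is the strongest overlapping summit of that replicate, unless the nearest summit is named, a reading added after the data were examined. The only test is an exact two-sided sign-flip permutation over replicates. Of 1034 listed symbols 1010 matched a gene. The peaks, lists and tests were chosen with earlier results of these data known.

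Peaks were named by rule: the 20 strongest, the overlapping pairs, the 2 smallest and 2 largest gaps, the 4 widest rank spreads, the edges of the window, and up to 4 leaders per gene list and 3 per motif. Signal groups, rank bands and gap classes were descriptive choices. Alternatives were other windows, starts, overlaps, list lengths and motif widths and leaving out each replicate.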

Additional observations from a re-analysis of the deposited data

How the results depend on the processing

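The order of divergent-start and one-directional median percentiles kept its sign under the 10 alternatives tried, from -3.58 (the 1783 strongest IDR peaks) to -9.41 (1 start per gene), and from -5.67 to -9.88 without 1 replicate. One of the 10, starts of protein-coding transcripts only, gave the same 224 peaks and the same -7.57, so it was no separate check. With a 250 bp window the difference was -5.32 ± 10.2 (SD, n = 3), with the replicates differing in sign. At the nearest replicate summit, added after the data were examined, it was -9.30, and support was 52.2%.

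The number of peaks was 139 with a 250 bp window, 367 with a 1000 bp window and 91 among the 1783 strongest IDR peaks, and 139 to 153 when the support of both remaining replicates was asked without 1 replicate. The share supported by all replicates was 96.7% among the 1783 strongest, 32.1% with 0.5 times and 89.7% with 2 times as many replicate regions, 47.8% when 0.5 of the region had to overlap, and 62.1 to 68.3% without 1 replicate. Summits between the starts were 63.9% with a 1000 bp window, 63.5% with 1 start per gene and 69.8 to 72.7% without 1 replicate. Divergent arrangement was 93.8% with 1 start per gene and 87.9% by the outermost starts of the same genes. Pairs with a peak were 10.6% for gaps up to 500 bp and 3.67% for the 1783 strongest. For these values the cause was not tested beyond the windows and list lengths themselves. For each of the 10 motifs the divergent-start share stayed on the same side of the one-directional share in the 4 other settings tried.

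No paired analysis was possible because there was 1 group and so no pairing of samples across groups; the percentile differences between classes of peaks were taken within each replicate. The unknown depth leaves the error of single signals unknown.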
